A study of Mus musculus with 6 samples.

Results

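The genes described here are 10 AP-1 and immediate early transcription factor genes in mouse left ventricle: Fos, Fosb, Fosl1, Fosl2, Jun, Junb, Jund, Egr1, Egr2 and Atf3. They were chosen by symbol from a table of 52550 genes, and each symbol stood on 1 row. The tissue came from C57BL/6J mice, 12 months of age, and RNA was sequenced in 2 groups of 3 libraries: wild type (WT), and a group named PKI whose label is PGC1alpha overexpression. What promoter or construct drives the overexpression is not stated in the labels. Nor do they tie each library to its own animal, and p-values therefore measure only how far these 6 samples spread, in part perhaps for technical reasons.

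AP-1 is a dimer of basic leucine zipper (bZIP) proteins, typically a FOS protein with a JUN protein or JUN with JUN, that binds a short palindromic DNA element. EGR proteins bind GC-rich DNA through zinc fingers, and ATF3 is a bZIP factor of the stress response that can pair with JUN proteins. Fos, Jun, Egr1 and their relatives are transcribed within minutes of a stimulus, without new protein synthesis, and their mRNAs are short-lived. In the heart they are known to respond to stretch, pressure load, catecholamines and ischaemia.

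The overexpression could not be seen in the gene named by the labels. Ppargc1a, which encodes PGC1alpha, measured 14.2, 12.8 and 12.4 FPKM (sequenced fragments per transcript length and per library total) in WT and 11.6, 11.8 and 11.4 in the PKI-labelled libraries. Its log2 difference was −0.16 (limma adjusted p = 0.0967) and, on the scaled values defined below, −0.44 (adjusted p = 0.00521), where it was called lower. Directions below are those of the groups as labelled. The summed FPKM of a library lay between 708058 and 767757, and the number of reads behind the values is unknown. Among genes averaging 1 FPKM or more, 9907 in all, the median difference between PKI and WT was 0.21 on the log2(FPKM + 1) scale. Dividing by median-of-ratios size factors ("after scaling" below) moved that median to −0.02. The test called 39.4% of these genes at an adjusted p under 0.05, 36.4% higher and 2.96% lower in PKI-labelled libraries, or 7.82% and 9.18% after scaling (17% in all). Counts of members, and of the gene lists below, are read beside those shares.

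The promoter stretches below are shown because they hold short elements known to bind AP-1, CREB and ATF proteins, EGR proteins, SRF or MEF2. They come from RefSeq windows (GRCm38.p6) that run from 250 bases before an annotated start of a gene to 50 after it. Such a start need not be the outermost of its gene. Windows were found for 8 of the 10 members (all but Fosl1 and Egr1). Each is written 5′ to 3′ on the gene's strand, with the matched element in capitals.
Fos, chr12:85473750-85473839, plus strand, with 2 copies of TGACG, the core of the cyclic AMP response element: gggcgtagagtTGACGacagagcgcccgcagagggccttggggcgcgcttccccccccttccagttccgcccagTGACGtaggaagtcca
Jun, chr4:95052238-95052307, minus strand, with TGACATCA, a variant AP-1 element, and a MEF2 element: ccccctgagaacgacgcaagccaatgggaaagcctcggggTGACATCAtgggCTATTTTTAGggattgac
Junb, chr8:84978819-84978878, minus strand, with TGACG: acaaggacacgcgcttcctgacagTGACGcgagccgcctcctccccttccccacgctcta
Fosb, chr7:19310076-19310135, minus strand, with TGACG and the EGR element GCGGGGGCG: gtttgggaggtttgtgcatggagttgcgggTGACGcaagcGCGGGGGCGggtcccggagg
Fosl2, chr5:32136382-32136411, plus strand, with GCGGGGGCG: tccggctgcgcGCGGGGGCGgaagggcgcg
Egr2, chr10:67537787-67537816, plus strand, with a CArG box, the element of SRF: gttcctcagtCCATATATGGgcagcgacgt
Atf3, chr1:191183336-191183365, minus strand, with a MEF2 element and the reverse complement of TGACG: tccctggaagCTATTAATAGcattaCGTCA

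Both strands were searched for each motif named here. TGACG is contained in TGACGTCA, so those matches can overlap. Shares below are of genes with a match in at least 1 of their windows, over 27025 genes with 32851 windows; Egr2 has 5 windows and the other 7 members 1 each. TGACG was found in 5 of the 8 member genes (Fos, Fosb, Junb, Egr2 and Atf3) and in 23.0% of all genes. The MEF2 element was found in Jun and Atf3 and in 0.636% of genes, and the CArG box in Egr2 alone of the 8 and in 1.81% of genes. Fosl1 and Egr1 had no window and were not searched, nor were bases more than 250 before a start. GCGGGGGCG was found in Fosb and Fosl2 (3.31% of genes) and TGACATCA in Jun (4.18%). The letters TGACTCA, TGACGTCA and GCGTGGGCG were not found in the members' windows (5.95%, 2.03% and 0.707% of all genes). A match is a description of the letters in a window, and no binding was measured. The Fosl2, Egr2 and Atf3 stretches lie inside the gene spans given below, downstream of the outermost start in GENCODE M21. Those of Fosl2 and Atf3 also overlap an exon of the same gene there.

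The members' messages are built from few exons. In GENCODE M21 (GRCm38), all 10 members had 4 exons or fewer in the transcript with the longest coding sequence, against 20.5% of tested genes, whose median was 9. Jun, Junb and Jund had 1 exon each, as did 2.35% of tested genes. The pentamer ATTTA, the core of the AU-rich elements that shorten the life of immediate early mRNAs, stood 8 times in the 3′ UTR of Fosl2, the longest of the 10, and 4 times each in those of Fos and Jun. At least 3 copies were found in 5 of the 10 members and in 33.9% of tested genes. Per kilobase of 3′ UTR it was most frequent in Fos (4.91) and Junb (4.12) and least in Fosb (0.466), with 9 of 10 members above the median of tested genes (1.22).

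Among the FOS subunits, which cannot pair with themselves and bind DNA with a JUN partner, Fos and Fosl2 were higher in PKI-labelled libraries. Fosl2, which encodes FRA-2 (ENSMUSG00000029135, chromosome 5: 32135801 to 32157842, plus strand, GRCm38) measured 0.969, 1.37 and 1.02 FPKM in WT and 2.80, 3.28 and 3.38 in PKI-labelled libraries. The lowest PKI-labelled library lay well above the highest WT library. The ratio of means was 2.82, from 1.12 ± 0.218 to 3.16 ± 0.310 FPKM (SD, n = 3 each), and the log2 difference was 0.97 (SE 0.10, limma adjusted p = 0.00107). After scaling it was 0.78 (adjusted p = 0.00360). Fosl2 was the most abundant FOS gene in all 6 libraries.

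Fos (ENSMUSG00000021250, chromosome 12: 85473890 to 85477273, plus strand) measured 0.268, 0.468 and 0.899 FPKM in WT and 1.72, 2.50 and 1.31 in PKI-labelled libraries. The groups did not overlap, but the values spread widely inside each, with a coefficient of variation of 59.2% in WT, the largest of any member there. The ratio of means was 3.39, from 0.545 ± 0.322 to 1.84 ± 0.607 FPKM (SD, n = 3 each). On the log2 scale the difference was 0.88 (SE 0.19, limma adjusted p = 0.0135), and after scaling 0.73 (adjusted p = 0.0438). The call was lost with quantile normalisation (adjusted p = 0.0626) and when all genes above 0 were tested (0.0502), and Fos reached the level for testing only through the PKI-labelled libraries.

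Fosb and Fosl1 lay below a mean of 1 FPKM. Fosb (ENSMUSG00000003545, chromosome 7: 19302696 to 19310051, minus strand), whose truncated product is known to persist after repeated stimulation, measured 0.0148, 0.0240 and 0.0356 FPKM in WT and 0.0638, 0.181 and 0.0331 in PKI-labelled libraries. The groups overlapped, and 1 library, PKI replicate 2, held the highest value (exact two-sided permutation p = 0.2, where the smallest p that 3 against 3 allows is 0.1).

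Fosl1, which encodes FRA-1 (ENSMUSG00000024912, chromosome 19: 5447547 to 5455946, plus strand), was the only member whose mean was lower in PKI-labelled libraries. It measured 0.459, 0.420 and 0.325 FPKM in WT and 0.399, 0.287 and 0.155 in PKI-labelled libraries, and the groups overlapped (exact two-sided permutation p = 0.2). After scaling all 3 values of PKI-labelled libraries lay below all 3 of WT, by a small margin (0.357 against 0.362). Of the 1864 bases of its transcript, 1163 are shared with exons of Ccdc85b on the opposite strand, which measured 5.56 to 11.7 FPKM. The library kit does not mark strand, so reads of the pair cannot be told apart there and the Fosl1 level is uncertain.

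JUN proteins pair with each other as well as with FOS proteins, and their genes were the most abundant of the 10 by group mean. In PKI replicate 2 Egr1 (5.96 FPKM) lay just above Junb (5.94). Jun (ENSMUSG00000052684, chromosome 4: 95049034 to 95052222, minus strand) measured 6.54, 13.4 and 8.28 FPKM in WT and 23.2, 18.7 and 27.8 in PKI-labelled libraries. The lowest PKI-labelled library exceeded the highest WT library, WT replicate 2. The ratio of means was 2.47, from 9.42 ± 3.59 to 23.2 ± 4.56 FPKM (SD, n = 3 each), with a log2 difference of 1.25 (SE 0.24, limma adjusted p = 0.00891). After scaling the difference was 0.98 (adjusted p = 0.0398). The antisense gene Junos, which overlaps 232 of the 3189 bases of Jun, stayed at 0.0976 FPKM or less.

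Junb (ENSMUSG00000052837, chromosome 8: 84974484 to 84978718, minus strand), a JUN protein of weaker activating capacity, measured 1.80, 2.84 and 2.41 FPKM in WT and 5.76, 5.94 and 6.06 in PKI-labelled libraries. The PKI-labelled libraries were close to one another, with a coefficient of variation of 2.60%, and all lay above WT. The ratio of means was 2.52, with a log2 difference of 1.06 (SE 0.12, limma adjusted p = 0.00133), or 0.82 after scaling (adjusted p = 0.00573). Its gene overlaps Prdx2 on the opposite strand (39.6 to 47.5 FPKM), although 0 bases of the Junb transcript lie in annotated Prdx2 exons.

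Jund (ENSMUSG00000071076, chromosome 8: 70698949 to 70700616, plus strand), which is expressed in resting cells and is known to limit cardiac hypertrophy, showed the smallest difference of the tested members. It measured 15.2, 23.4 and 16.03 FPKM in WT and 30.3, 25.3 and 30.5 in PKI-labelled libraries. The groups did not overlap as deposited, but after scaling WT replicate 2 (25.9) exceeded PKI replicate 2 (22.3). The ratio of means was 1.58, with a log2 difference of 0.65 (SE 0.16, limma adjusted p = 0.0201), and after scaling 0.36 (adjusted p = 0.194), so the call depends on the scaling. Leaving out WT replicate 3, PKI replicate 1 or PKI replicate 3 also ended the call (limma adjusted p = 0.0660, 0.0593 and 0.0625). The antisense gene Gm11175, which covers 877 of its 1668 bases, stood at 0.294 FPKM or less.

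**Figure D1:**
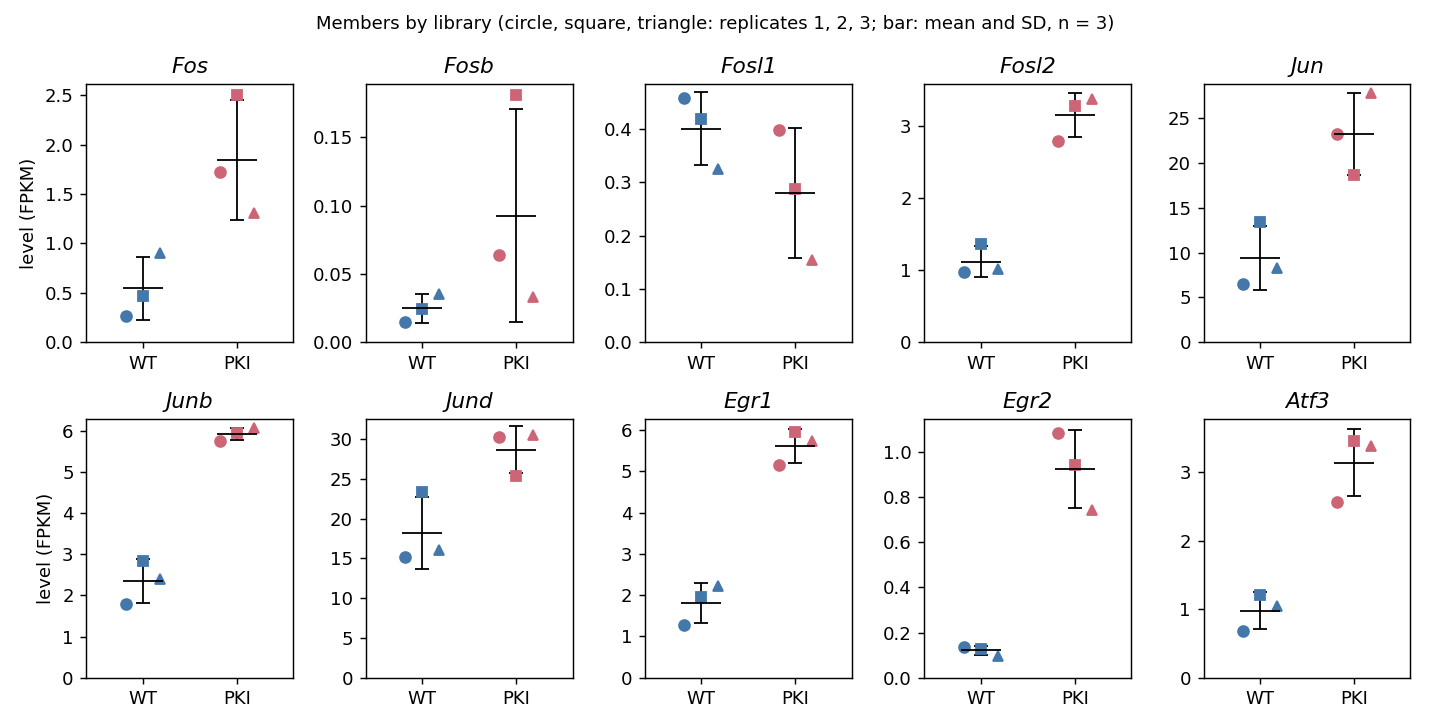
Level in FPKM (vertical axis, from 0, with a scale of its own in each panel) of the 10 members in 3 WT libraries (blue) and 3 PKI-labelled ones (red), with circle, square and triangle for replicates 1, 2 and 3 and black bars for the mean and SD. Groups overlap for Fosb and Fosl1 and are apart for the other 8 members, with Egr2 between 0.0965 and 0.138 in WT and between 0.743 and 1.08 in PKI-labelled libraries.

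Both EGR genes were higher in PKI-labelled libraries. Egr1 (ENSMUSG00000038418, chromosome 18: 34859823 to 34864984, plus strand), a zinc finger factor induced by growth factors and stretch, measured 1.27, 1.95 and 2.22 FPKM in WT and 5.16, 5.96 and 5.74 in PKI-labelled libraries. The groups were far apart, and the ratio of means was 3.10, from 1.81 ± 0.490 to 5.62 ± 0.412 FPKM (SD, n = 3 each). The log2 difference was 1.25 (SE 0.13, limma adjusted p = 0.00125), or 1.02 after scaling (adjusted p = 0.00436).

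Egr2 (ENSMUSG00000037868, chromosome 10: 67535475 to 67542188, plus strand), a relative known for its part in Schwann cells and in monocytes, had the largest ratio of the 10 members, at a low level. It measured 0.138, 0.128 and 0.0965 FPKM in WT and 1.08, 0.943 and 0.743 in PKI-labelled libraries, so the lowest PKI-labelled library was far above the highest WT library. The ratio of means was 7.64, from 0.121 ± 0.0216 to 0.924 ± 0.172 FPKM (SD, n = 3 each). Its mean fell under 1 FPKM, so it was tested when all genes above 0 entered, where the log2(FPKM + 1) difference was 0.78 (limma adjusted p = 0.00666) and 11.1% of 24705 genes were called higher and 0.935% lower. Of the genes under a mean of 1 FPKM, 15.2% had all PKI-labelled libraries above all WT libraries and 2.3% had them below. A similar ratio was seen for Egr3, a gene of the same family that was chosen here after its values were seen: 0.114 ± 0.0783 FPKM in WT and 0.835 ± 0.0436 in PKI-labelled libraries (SD, n = 3 each). Egr4 was listed at 0 in all 6 libraries.

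Atf3 (ENSMUSG00000026628, chromosome 1: 191170296 to 191218039, minus strand), a stress-induced factor that mainly represses transcription as a homodimer, measured 0.685, 1.21 and 1.04 FPKM in WT and 2.57, 3.46 and 3.38 in PKI-labelled libraries. Every PKI-labelled library was above every WT library, with a ratio of means of 3.20. The log2 difference was 1.07 (SE 0.13, limma adjusted p = 0.00196), or 0.88 after scaling (adjusted p = 0.00641). Like Fos, Atf3 had a WT mean under 1 FPKM (0.980 ± 0.269, SD, n = 3).

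Without any filter on level, 6 of the 10 members were called, all higher (Fosl2, Jun, Junb, Egr1, Egr2 and Atf3), where 12.1% of all genes above 0 were called in either direction. With the filter, 7 members were tested (Fosb, Fosl1 and Egr2 fell under it), and 7 were called higher as deposited and 6 after scaling. The groups did not overlap for the 7 tested members, with the PKI-labelled libraries above, which was so for 51.3% of tested genes (4.53% had them below). Egr2 also had them above, as had 15.2% of genes above 0 and under a mean of 1 FPKM. After scaling 6 of the 7 tested members, all but Jund, had PKI-labelled libraries above, as had 16.6% of tested genes (20.7% had them below). Egr2 then stayed above and Fosl1 lay below, but no scaled share was computed for genes under the filter.

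**Figure D2:**
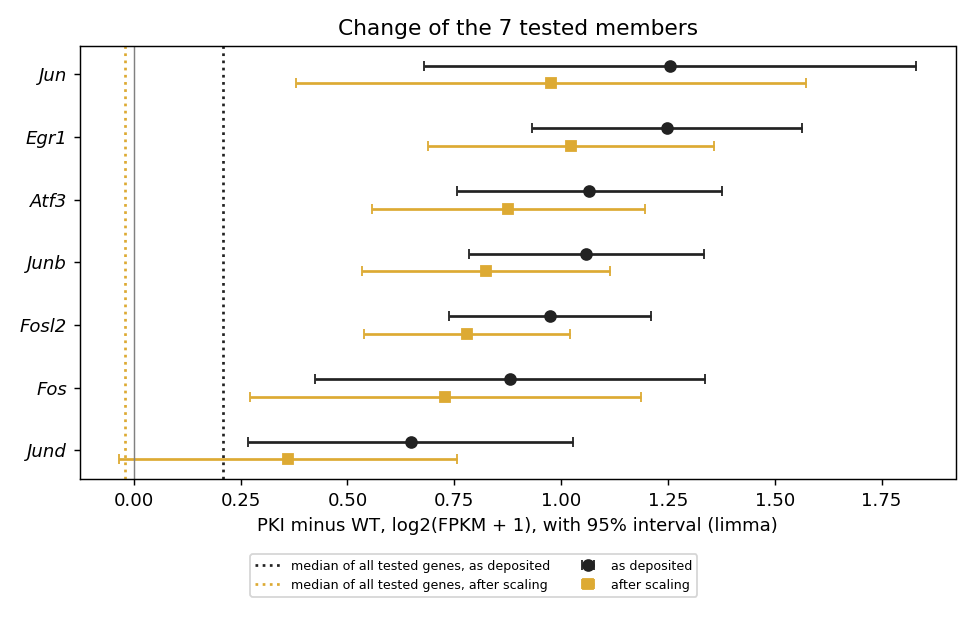
Difference between PKI and WT on the log2(FPKM + 1) scale (horizontal axis) with its 95% interval from limma for the 7 tested members, as deposited (black circles) and after median-of-ratios scaling (yellow squares), and the medians of all tested genes as dotted lines. As deposited the members run from 0.65 for Jund to 1.25 for Jun, against 0.21 for all tested genes, and after scaling the interval of Jund crosses 0.

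In level, FPKM being scaled to transcript length, the order in WT was Jund, Jun, Junb, Egr1, Fosl2, Atf3, Fos, Fosl1, Egr2 and Fosb. Jund, Jun and Junb were separated from one another without overlap, whereas from Junb to Fosl1 each gene overlapped the next. In PKI-labelled libraries the order was Jund, Jun, Junb, Egr1, Fosl2, Atf3, Fos, Egr2, Fosl1 and Fosb, again by mean. There Jund overlapped Jun, Junb overlapped Egr1, Fosl2 overlapped Atf3 and Fosl1 overlapped Fosb. Egr2 stood below Fosl1 in every WT library and above it in every PKI-labelled library.

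The shares of some genes within each family also differed between the groups. Such shares within a library are the same under any scaling by 1 factor per library. They can change under quantile normalisation, where they were not computed. The shares of a family add up to its whole, so they are not independent of one another. No test was made of them, and how often shares of other genes separate the groups was not computed. Jund made up 64.6%, 59.0% and 60.0% of the FPKM of the 3 JUN genes in WT and 51.1%, 50.7% and 47.4% in PKI-labelled libraries. Jun took a larger part there, 39.9% ± 2.96 against 30.9% ± 3.05 in WT (SD, n = 3 each), as did Junb (10.3% ± 1.36 against 7.93% ± 0.962). For Jun, Junb and Jund the shares of the groups did not overlap.

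In the FOS family the summed level was 2.09 ± 0.328 FPKM in WT and 5.37 ± 0.766 in PKI-labelled libraries (SD, n = 3 each). Fosl1 made up 26.8%, 18.4% and 14.3% of it in WT and 8.0%, 4.59% and 3.18% in PKI-labelled libraries, without overlap, with the uncertainty of Fosl1 given above. Fosl2 held a similar part in both groups (53.8% ± 8.06 and 59.3% ± 8.86), with overlap, and so did Fos (25.2% ± 12.6 and 33.8% ± 6.64). The JUN genes summed to 30.0 ± 8.55 FPKM in WT and 57.8 ± 7.32 in PKI-labelled libraries, so JUN messages exceeded FOS messages per length in every library. Of the 2 EGR genes, Egr2 accounted for 6.71% ± 2.85 in WT and 14.2% ± 2.99 in PKI-labelled libraries, without overlap.

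**Figure D3:**
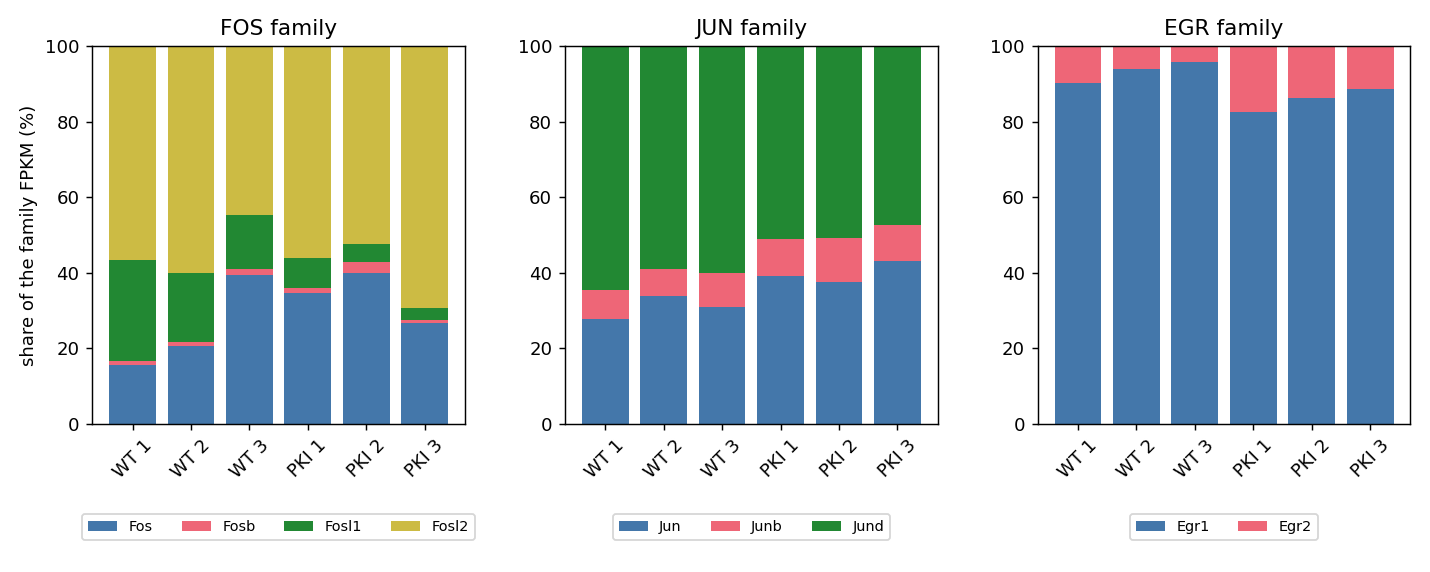
Share in percent (vertical axis) of each gene in the summed FPKM of its family, for the FOS, JUN and EGR members, in each of 3 WT libraries and 3 labelled PKI (horizontal axis). Jund takes 59.0% to 64.6% of the JUN family in WT and 47.4% to 51.1% in PKI-labelled libraries, and Fosl1 shrinks from 14.3% to 26.8% of the FOS family to 3.18% to 8.0%.

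Inside WT the members ranked the libraries as follows. WT replicate 1 was the lowest WT library for 8 of the 10 members and the highest for the other 2, Fosl1 and Egr2, while over all tested genes it was the lowest for 30.2%. WT replicate 2 was the lowest for 0 of the 10 and the highest for 5 of them (30.7% of all tested genes). It was also the highest WT library for 17 of 21 other tested immediate early genes, as deposited and after scaling alike. WT replicate 1, in contrast, was the lowest for 9 of those 21 and WT replicate 3 for 9 (10 and 8 after scaling). Among PKI-labelled libraries, replicate 1 was the lowest for 4 of the 10 members, replicate 2 for 2 and replicate 3 for 4.

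Other immediate early genes were also higher in PKI-labelled libraries: of 28 listed, 21 were tested, 15 were called higher and 0 lower (8 and 0 after scaling). Their median log2 difference was 0.64, against 0.21 over all tested genes, and 0.43 after scaling. Of all tested genes 36.4% were called higher, and 7.82% after scaling. Ctgf, a secreted matricellular protein, measured 11.4, 21.5 and 12.4 FPKM in WT and 55.1, 81.2 and 65.8 in PKI-labelled libraries (ratio 4.46, limma adjusted p = 0.00142). Ier3, a regulator of survival signalling, had a ratio of 2.40 and Ier5, a partner of the heat shock factor HSF1, one of 2.53 (adjusted p = 0.000858 and 0.00274). Not all followed: Ier2 measured 2.16, 3.57 and 4.16 FPKM in WT and 4.94, 3.82 and 4.20 in PKI-labelled libraries, and Rgs2 2.31, 4.41 and 2.68 against 3.83, 3.10 and 3.08, with overlap for both. Those 2 were chosen after their values were seen.

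Dimer partners and other bZIP factors were called higher in 12 of 16 tested genes (23 listed) and lower in 0, with a median of 0.49. The share called higher over all tested genes was 36.4%, or 7.82% after scaling. After scaling 3 of the 16 were called, all higher (median 0.28). Among those 3 were Atf4, the effector of the integrated stress response, and its relative Atf5. Atf4 measured 20.1 ± 1.16 FPKM in WT and 34.7 ± 3.91 in PKI-labelled libraries, and Atf5 8.32 ± 0.786 and 15.95 ± 3.11 (SD, n = 3 each; limma adjusted p = 0.00196 and 0.00479). Both EGR corepressors were higher, Nab2 with a ratio of 2.07 (adjusted p = 0.00437) and Nab1 with 1.5 (0.00543), and Nab2 was also called after scaling (0.0241).

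The kinases that carry signals to these genes gave counts near those of all genes as deposited. Of 26 MAP kinases and upstream kinases, 19 were tested, 6 were called higher and 0 lower (36.4% and 2.96% of all tested genes). Their median was 0.16 against 0.21. After scaling 0 were higher and 3 lower (7.82% and 9.18% of all tested genes), with a median of −0.09 against −0.02. Mapk12, a p38 kinase of striated muscle, had a ratio of 1.57 (limma adjusted p = 0.00354), Map2k1, which activates ERK, one of 1.30 (0.00682) and Map3k4 one of 1.33 (0.0207), and after scaling 0 of these 3 was called. Srf, whose protein drives Fos and Egr genes through the CArG box, measured 11.8 ± 0.737 FPKM in WT and 13.5 ± 1.17 in PKI-labelled libraries (adjusted p = 0.112). Of 6 tested genes of SRF and its cofactors, 2 were called higher, Mkl2 (ratio 1.63) and Elk3 (1.20), and 0 after scaling, where Elk3 lay at −0.03. Elk4 was at 1.28 (adjusted p = 0.0954).

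Phosphatases and inhibitors that switch MAP kinases off were called higher in 6 of 11 tested genes (13 listed) and lower in 0. All tested genes gave 36.4% and 2.96%, and the list's median was 0.38. After scaling 1 was higher, Dusp8 (ratio 1.78, limma adjusted p = 0.00269 as deposited and 0.0176 after scaling), and 1 lower, Dusp10. The scaled shares of all tested genes were 7.82% higher and 9.18% lower. Dusp6, a phosphatase of ERK, had a ratio of 1.65 and Spry1, an inhibitor of receptor signalling, one of 1.62 (adjusted p = 0.00831 and 0.00941). Dusp1, itself an immediate early gene, measured 5.03, 9.83 and 10.4 FPKM in WT and 10.5, 9.56 and 9.64 in PKI-labelled libraries, with overlap, and was chosen after its values were seen.

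Genes known from other systems as AP-1 or EGR1 targets were called higher in 10 of 14 tested genes (21 listed) and lower in 0. Their median was 0.51, and after scaling 6 were higher and 0 lower (median 0.28). Of all tested genes 36.4% were called higher, and 7.82% after scaling. Timp1, an inhibitor of matrix metalloproteinases, measured 0.624 ± 0.389 FPKM in WT and 10.6 ± 2.15 in PKI-labelled libraries (SD, n = 3 each, limma adjusted p = 0.000502). Lgals3, which encodes the lectin galectin-3, went from 0.671 ± 0.175 to 5.78 ± 0.928 FPKM (SD, n = 3 each, limma adjusted p = 0.000301). Timp1 and Lgals3 had WT means under 1 FPKM and passed the filter only through the PKI-labelled libraries. Without the filter their limma adjusted p-values were 0.00452 and 0.00378. The haem oxygenase gene Hmox1 had a ratio of 2.15 (limma adjusted p = 0.000911) and the cyclin gene Ccnd1 one of 1.49 (0.0193), while Pdgfb did not pass (1.29, 0.0924). After scaling Hmox1 stayed called (limma adjusted p = 0.00273), whereas Ccnd1 did not (0.226). The matrix metalloproteinase gene Mmp13, often used as an AP-1 target and chosen here after its values were seen, lay under the filter and went the other way. It measured 0.111, 0.141 and 0.103 FPKM in WT and 0.0549, 0.0372 and 0.0189 in PKI-labelled libraries, without overlap, and was called lower when all genes above 0 were tested (limma adjusted p = 0.0382).

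**Figure D4:**
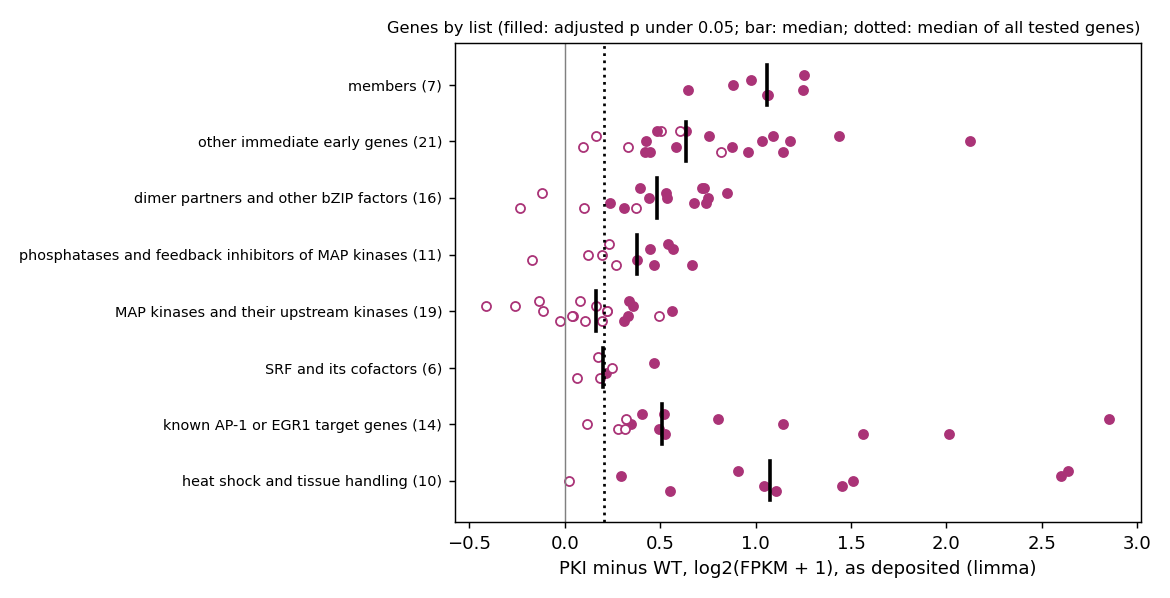
Difference between PKI and WT on the log2(FPKM + 1) scale (horizontal axis) for each tested gene of the members and 7 lists (rows, number tested in brackets), with filled points for an adjusted p under 0.05, a bar at each list's median and a dotted line at the median of all tested genes. Medians lie at 1.06 for the tested members, 0.64 for other immediate early genes and 0.16 for MAP kinases, against 0.21 for all tested genes.

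Heat shock genes, which like immediate early genes respond to stress and to tissue handling, were higher beside the members. In all, 9 of 10 were called higher and 0 lower (6 and 0 after scaling), with a median of 1.08. The share called higher over all tested genes was 36.4%, or 7.82% after scaling. Hspa1b, which shares near-identical sequence with Hspa1a, measured 0.502, 0.446 and 0.366 FPKM in WT and 9.72, 4.65 and 10.8 in PKI-labelled libraries (limma adjusted p = 0.000950). Hspa1a gave similar values (ratio 17.7) and Hsp90aa1, a cytosolic chaperone, had a ratio of 2.95 (adjusted p = 0.000987 and 0.000989). Hspa1a and Hspa1b had WT means under 1 FPKM and passed the filter only through the PKI-labelled libraries. Without the filter their limma adjusted p-values were 0.00733 and 0.00696. As deposited, PKI replicate 2 was the lowest of its group for Hspa1b, Jun and Jund, and the highest for Fos, Fosb, Egr1 and Atf3. It was in the middle for the other 4 members. After scaling PKI replicate 3 was the highest for Atf3 (3.07 against 3.05 in PKI replicate 2). The part of handling or heat shock in the members' levels was not tested.

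Many markers of fibroblasts, macrophages and smooth muscle or pericytes were also higher in PKI-labelled libraries. In bulk tissue more cells of a type cannot be told apart from more RNA per cell. Of all tested genes 36.4% were called higher and 2.96% lower, or 7.82% and 9.18% after scaling. Fibroblast markers were called higher in 6 of 7 genes, as deposited and after scaling, their summed level as deposited ranging from 84.2 to 124 FPKM in WT and from 234 to 286 in PKI-labelled libraries. Macrophage markers were higher in 7 of 7 (35.2 to 45.3 and 93.3 to 99.0 FPKM), and in 5 after scaling. Smooth muscle and pericyte markers were higher in 3 of 5 (115 to 143 and 178 to 214 FPKM), and in 1 after scaling. Endothelial markers were higher in 1 of 6 (65.5 to 70.2 and 71.3 to 80.3 FPKM), whereas after scaling 0 were higher and 1 lower. Of 8 cardiomyocyte markers, abundant in all 6 libraries, 1 was higher and 3 lower (7100 to 7383 and 6562 to 7017 FPKM), and after scaling 0 were higher and 7 lower. Red blood cell markers were lower in 5 of 5 in both fits (380 to 538 and 274 to 338 FPKM). Atrial markers (3 tested, 0 called) ranged from 60.2 to 135 FPKM in WT and from 10.1 to 115 in PKI-labelled libraries, and 1 of 3 adipocyte and 1 of 4 neutrophil markers were tested, with 0 called. Lymphocyte and skeletal muscle markers each summed to 0.385 FPKM or less in every library, with Myh4 at 0 in all of them. The part of these cells in the members' levels was not tested.

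The tested genes whose log2(FPKM + 1) followed the mean of the 7 tested members most closely over the 6 libraries were Epn3, AW549877, Agtrap, Csk, Prmt2 and Evc2, with Pearson r from 0.995 to 0.998. Epn3, an endocytic adaptor gene, had group means of 2.03 FPKM in WT and 6.12 in PKI-labelled libraries, and Agtrap, which encodes a protein that binds the angiotensin receptor, 6.89 and 8.63. The genes most like Fos were Ext2, Erich1 and Bnip3l (r from 0.993 to 0.996). The 6 libraries share the group difference, and these genes are the highest of 9907 compared, so the coefficients are descriptions of these libraries.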

How the data were processed

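The values deposited by the authors are FPKM per gene, going by the table's name. The submitters' processing notes list CASAVA, Bowtie 0.12.2 and build mm9 without saying what each was used for. Which program and annotation gave the FPKM, and with what filters, is not given in the sources used here. Libraries were made with the Illumina TruSeq RNA kit from total RNA, per the labels' protocols. Groups came from sample titles. Both deposited gene tables held identical values. Gene positions come from GENCODE M21 (GRCm38), matched by identifier, without conversion.

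limma 3.58.1 (R 4.3.3) was run two-sided on log2(FPKM + 1), which understates changes of low genes, for genes averaging 1 FPKM or more. The variance followed a trend and no block was used. Genes were called at a Benjamini-Hochberg adjusted p under 0.05 over all genes tested. Fold values are ratios of mean FPKM. The fit was tested on simulated data. Members under the filter had an exact permutation test. Depth is unknown, so no counting interval is given.

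The members and lists were chosen with earlier results of these data known, and the promoter motifs with the sequences in view. Named genes were the members, Ppargc1a, the 3 smallest p-values of each list, the 3 most abundant tested targets and the genes most like the members or Fos; others are marked as chosen after their values were seen. A few genes that meet this rule are not reported here. Alternatives were 3 scalings, a pseudocount of 0.1, no filter, a minimum mean of 5 FPKM, no variance trend, the replicate number as a block, and each library left out.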

Additional observations from a re-analysis of the deposited data

How the results depend on the processing

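All 7 tested members were higher in libraries labelled PKI in each of the 14 alternatives, where tested. Fosl2, Jun, Junb, Egr1 and Atf3 were also called in each alternative that tested them, 14 for Jun and 13 for each of the others. Fos was not called in 2 and Jund in 7. The count of called members was 6 with either scaling to size factors or scaling to the non-mitochondrial total (nuclear copies of mitochondrial genes also left out), 5 with quantile normalisation, 6 with no filter and 7 with a pseudocount of 0.1 or no variance trend. With a minimum mean of 5 FPKM it was 2, since only Jun and Jund were then tested. Leaving out 1 library gave 6 to 7.

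Over all genes, 3902 were called, 3609 higher and 293 lower. Size factors gave 1684 (775 higher and 909 lower), scaling without mitochondrial genes 1622 (1019 and 603), quantile normalisation 1515 (753 and 762), and a minimum mean of 5 FPKM 1925 (1739 and 186). Leaving out 1 library gave 2344 to 3425 (2179 to 3162 higher and 165 to 263 lower), the smallest without WT replicate 3, and 2498 without PKI replicate 3. The cause was not tested, save that fewer genes or samples entered the last 2 kinds of fit. Mitochondrial genes and their nuclear copies held 81.8% to 82.3% of the summed FPKM in WT and 78.0% to 78.2% in PKI-labelled libraries. Scaling to the total without them moved the median log2 difference of all tested genes from 0.21 to 0.05.

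With the replicate number as a block, 2849 genes and 7 members were called. Same-numbered libraries did not deviate together (r over genes of −0.104, 0.00115 and 0.0529), and 1 of 6 libraries correlated best with its own number, so the numbers were not taken as pairs.

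The depth is unknown, so the precision of Fosb, Fosl1 and Egr2, all under a mean of 1 FPKM, cannot be given from counts.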
